A study of Mus musculus with 10 samples.

Results

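Loops called in IFNG-treated macrophages were compared between cells that had first been primed with IL-4 and cells that had not. Hi-C ligates and reads pieces of chromatin that neighbour each other inside the nucleus, and a loop here is a pair of 10 kb bins listed with the whole-number count of contacts between them. The comparison took the pIL-4 + IFNG and IFNG groups, 4 of the 10 samples of the series, chosen by the treatments in their labels. Their loop lists held 122012 of the 301424 loops in all 5 lists. All groups were bone marrow-derived macrophages (BMDMs) of wild type C57BL/6 female mice aged 2 to 3 months, grown with M-CSF at 20 ng/ml and treated from day 6. Both groups compared received IFNG at 20 ng/ml for 3 h. The pIL-4 + IFNG cells had before that received IL-4 at 20 ng/ml for 24 h, a wash and 24 h of rest. The other 3 groups are M0[CTR], without cytokine treatment, M2p[pIL-4], with IL-4, wash and rest but no IFNG, and M2[IL-4], taken at the end of 24 h of IL-4. The labels do not give the time in culture of the unprimed IFNG cells, so priming cannot be told apart from any difference in time in culture. The 2 replicates of a group were merged into 1 list, which leaves every difference without a replicate check and allows no test of the conditions. All intervals are 95% intervals and cover counting error only.

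IL-4 signals through JAK kinases to STAT6 and drives alternative (M2) polarization, whereas IFNG signals through JAK1 and JAK2 and drives an antimicrobial and antigen-presenting programme. Loops bring promoters near distant elements. Many of them end at sites bound by the insulator protein CTCF, most often with the motifs of both ends pointing towards each other, an arrangement called convergent. Loops near a gene are contacts of DNA and say nothing of the level of its RNA, so the identity of the cells cannot be checked from them.

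The sequences at anchors of the loops on which the comparison turned are shown first. Here and below the strongest loop is the one with the highest count relative to loops of equal span in its list (count over their median). In the first set, 30 bases are given from the strand that carries a match to the CTCF consensus, with the 14 matching bases (at most 1 mismatch) in capitals, in GRCm38.
Serpina9 anchor, chr12:103995489-103995518, plus strand, no mismatch: cttgcttcCCAGCAGAGGGCGCcgaaaccc
Serpina3n anchor, chr12:104419332-104419361, minus strand, no mismatch: cacgtgtgCCAGTAGGTGGCAGagaggagc
Alpi anchor, chr1:87098758-87098787, plus strand, 1 mismatch: ggctctggCCGGCAGGGGGCGCcaggccgc
Prss56 anchor, chr1:87185033-87185062, minus strand, 1 mismatch: gctagcttCCGCTAGGGGGCAGcagagacc
Mcf2l anchor of the F10 locus, chr8:12988883-12988912, plus strand, 1 mismatch: tcaagtggCCACCAGAGGTCAGgagagtcg
Oas1d anchor, chr5:120914395-120914424, minus strand, no mismatch: agagaaatCCAGCAGGTGGCAGgcgccagc
Sdf2l1 anchor, chr16:17132079-17132108, minus strand, 1 mismatch: gactgggaCCGCCAGGGGGCGGagggctta
The Serpina9 and Serpina3n pair, convergent, belongs to the bin pair with the largest rise in contacts. The Alpi and Prss56 pair, also convergent, belongs to the strongest loop near Chrnd, and the Mcf2l and Oas1d matches belong to the strongest loops of the F10 and Oas1f loci. The Sdf2l1 match lies at the strongest loop of the pIL-4 + IFNG list with no match in the IFNG list.

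That loop joined bins that hold the promoters of Sdf2l1 and of Rimbp3 and Ube2l3. Those of Sdf2l1 and Ube2l3 are given as RefSeq has them for GRCm38, from upstream of the start to just after it. Below them is the promoter of Prss56, whose 1 match to TTCNNNGAA, a palindrome of the STAT family, is in capitals.
Sdf2l1, chr16:17132334-17132633, minus strand: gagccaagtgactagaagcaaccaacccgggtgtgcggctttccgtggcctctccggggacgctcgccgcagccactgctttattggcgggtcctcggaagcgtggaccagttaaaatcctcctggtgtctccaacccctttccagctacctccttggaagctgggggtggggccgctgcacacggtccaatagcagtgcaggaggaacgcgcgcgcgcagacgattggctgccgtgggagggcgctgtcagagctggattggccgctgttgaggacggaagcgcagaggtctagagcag
Ube2l3, chr16:17201443-17201742, minus strand: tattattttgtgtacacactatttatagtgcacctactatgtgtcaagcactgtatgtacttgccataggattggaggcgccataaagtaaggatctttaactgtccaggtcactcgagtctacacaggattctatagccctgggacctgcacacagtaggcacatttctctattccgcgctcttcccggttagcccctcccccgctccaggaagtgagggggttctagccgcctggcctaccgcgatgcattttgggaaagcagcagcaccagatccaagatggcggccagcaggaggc
Prss56, chr1:87183064-87183363, plus strand: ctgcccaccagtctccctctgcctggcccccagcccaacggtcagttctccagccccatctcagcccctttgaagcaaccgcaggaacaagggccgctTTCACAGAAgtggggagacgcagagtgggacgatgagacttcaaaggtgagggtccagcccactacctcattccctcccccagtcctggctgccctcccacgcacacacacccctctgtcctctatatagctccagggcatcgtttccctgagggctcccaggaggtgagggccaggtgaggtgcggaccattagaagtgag
Of 32851 RefSeq promoters, 8.30% held TTCNNNGAA, 6.95% held the STAT6 palindrome, which has a 4-base gap where TTCNNNGAA has 3, and 2.28% a CTCF consensus match. The Sdf2l1 and Ube2l3 windows held none of the 3, which says only that these letters are not in these windows.

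Priming went with a longer list but not with stronger contacts at the loops that both lists held. pIL-4 + IFNG had 67000 loops and IFNG 55012, a ratio of 1.22 (interval 1.20 to 1.23), and the M2p[pIL-4] list was 1.27 (1.25 to 1.28) times as long as that of M0[CTR]. The excess was present on every chromosome, from 1.16 on chromosome 13 to 1.28 on chromosome 9. It was largest at short range. Between bins 20 to 50 kb apart the ratio was 1.38 (1.33 to 1.43), and at 500 kb and over it was 1.08 (1.05 to 1.12). For M2p[pIL-4] over M0[CTR] the corresponding ratios were 1.36 (1.32 to 1.41) and 1.18 (1.14 to 1.22), so both pairs had the lower ratio at long range, and the interval of the IFNG-treated pair lay below that of the other pair there. At adjacent bins the order was the opposite, with 1.37 (1.30 to 1.44) in the IFNG-treated pair and 1.18 (1.12 to 1.24) without IFNG.

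At the 28976 bin pairs listed in both groups, contacts in pIL-4 + IFNG summed to 0.985 (0.983 to 0.988) of those in IFNG. By span this ratio lay between 0.977 and 0.994. The lists hold only the called part of each library, so depth cannot be read from them, and whether depth or calling had a part in the longer list was not tested. Of the 22978 shared bin pairs with 50 or more contacts over both lists, 268 (1.17%) were higher after priming past 1.5-fold and 399 (1.74%) were lower.

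**Figure D1:**
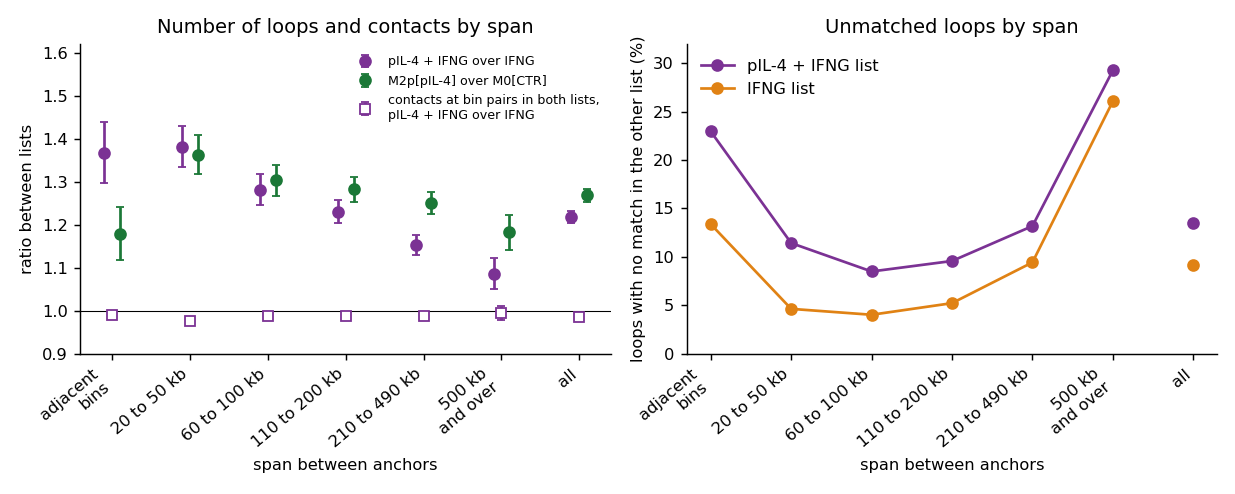
Left, the ratio of loop numbers after priming by span between anchors, with IFNG (purple) and without (green), and the ratio of summed contacts at bin pairs held by both IFNG-treated lists (open squares), with 95% counting intervals. Right, the percent of loops of each IFNG-treated list with no match within 25 kb in the other. Loop number was higher after priming at every span, contacts at shared bin pairs stayed within 0.977 to 0.994, and loops of 500 kb and over were matched least.

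The bin pair with the largest rise lay on chromosome 12, between a bin in Serpina9 (103990001 to 104000000) and a bin at Serpina3n (104410001 to 104420000), 420 kb apart. Both genes encode serine protease inhibitors of a clustered family, and Serpina3n is an acute phase protein. The primed IFNG list held 42 contacts at the pair and the unprimed one 19, while M0[CTR] held 15, M2[IL-4] held 17 and M2p[pIL-4] did not list it. The log2 ratio of the 2 IFNG-treated lists was 1.14 (0.33 to 2.01), and the count in pIL-4 + IFNG was the highest at these bins. Within 25 kb, however, IFNG had up to 38 contacts and M2[IL-4] up to 34. Next came a pair at Oacyl on chromosome 18, with 45 contacts against 22 (1.03, 0.27 to 1.84). A pair from Galnt7 to Galntl6, which encode enzymes or relatives of enzymes that start O-linked glycans, had 47 against 23 (1.03, 0.28 to 1.82). Nearby bins did not share these rises, since the highest counts within 25 kb in pIL-4 + IFNG and IFNG were 69 and 64 at Oacyl and 47 and 61 at the Galnt7 pair. In the other direction, a pair ending in Mcfd2, an export receptor subunit of the secretory pathway, had 26 contacts after priming and 56 without, a log2 ratio of -1.11 (-1.84 to -0.41). M2p[pIL-4] held 62 at that pair, M0[CTR] 55 and M2[IL-4] 49, close to the IFNG list. Within 25 kb of the Mcfd2 pair the highest count was 45 after priming and 56 without. Psen2, a catalytic subunit of gamma-secretase, and Itpkb, an inositol phosphate kinase, were joined by 26 contacts after priming and 55 without (-1.08, -1.81 to -0.38), and the other 3 lists held 44, 40 and 43. Nearby bins did not share the drop, since within 25 kb the highest count was 87 after priming and 65 without. A pair at Dnaaf5 had 18 against 38 (-1.08, -1.97 to -0.23), with up to 46 after priming and 49 without within 25 kb. These 6 were the extremes of 22978 pairs, so their intervals do not allow for that choice.

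Most loops of one list had a counterpart in the other. With both anchors within 25 kb counted as a match, 86.5% (86.3 to 86.8) of pIL-4 + IFNG loops were matched in IFNG, and 90.8% (90.6 to 91.1) of IFNG loops were matched in pIL-4 + IFNG. That left 9028 loops of the primed list with no match in IFNG, called primed-only below, and 5044 IFNG-only loops with no match in the primed list. The gap between the shares went with list length. When the longer list was reduced to its strongest 55012 loops, the shares were 88.6% and 88.3%. Loops were split by strength, as defined above, into 10 equal classes. In the weakest class of pIL-4 + IFNG, 76.0% (74.9 to 77.0) were matched, and in the strongest class 98.4% (98.1 to 98.7). In IFNG these shares were 81.9% (80.9 to 82.9) and 99.3% (99.1 to 99.5).

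Unmatched loops were longer and weaker than matched ones in both lists. Their median span was 220 kb in pIL-4 + IFNG and 340 kb in IFNG, against 160 and 170 kb for matched loops. Their median count was 23 and 19 contacts, against 33 in both. A promoter lay in an anchor of 24.0% (23.2 to 24.9) of the unmatched loops after priming and of 21.6% (20.5 to 22.7) of those without, below the 30.3% and 29.9% of matched loops. Loops of 500 kb and over made up 34.3% (33.0 to 35.6) of the IFNG-only loops and 23.3% (22.5 to 24.2) of those found only after priming. The primed-only loops were richer in adjacent bins, at 8.60% (8.03 to 9.19) against 6.56% (5.91 to 7.28).

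The primed-only loops were listed more often in M2p[pIL-4] than in unprimed cells. Of the 9028, 45.3% (44.2 to 46.3) had a match in M2p[pIL-4], 40.6% (39.6 to 41.6) had one in M2[IL-4] and 35.1% (34.1 to 36.1) one in M0[CTR], and 36.2% (35.2 to 37.2) in none of the 3. The IFNG-only loops had the same order with lower shares, at 36.5% (35.2 to 37.9), 31.0% (29.7 to 32.3) and 29.6% (28.4 to 30.9), and 45.2% (43.8 to 46.6) in none. M2p[pIL-4] is also the longest list, which raises its share for any set of loops. Loops absent from M0[CTR] and present in both IL-4 lists without IFNG were 870, or 9.64% (9.05 to 10.3), of the primed-only loops and 363, or 7.20% (6.52 to 7.94), of the IFNG-only ones. The converse, M0[CTR] alone of the 3, gave 559, or 6.19% (5.71 to 6.71), and 360, or 7.14% (6.46 to 7.88). Over all loops, matched or not, these 2 kinds made up 4.14% and 1.48% of the pIL-4 + IFNG list and 3.46% and 1.39% of the IFNG list. The first kind was thus the more frequent one in both whole lists and in the primed-only set, and the kinds were equally frequent within their intervals in the IFNG-only set.

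The strongest primed-only loop joined the promoter bins of Sdf2l1 (17130001 to 17140000) and of Rimbp3 and Ube2l3 (17200001 to 17210000) on chromosome 16, at 70 kb. Sdf2l1 encodes a chaperone component of the endoplasmic reticulum and Ube2l3 a ubiquitin-conjugating enzyme. It held 96 contacts (77.8 to 117) in pIL-4 + IFNG and 126 in M2p[pIL-4] and was not listed in the other 3 lists. Within 25 kb the untreated list had up to 56 and the M2[IL-4] list up to 71, and IFNG had none there. The second, within Lhfpl2 on chromosome 13, had 141 contacts (119 to 166), with 153 in M2p[pIL-4], none within 25 kb in IFNG, and at most 73 (untreated) and 53 (M2[IL-4]) there. At their exact bins both loops were called only in the 2 primed lists, while the untreated and IL-4 lists had weaker calls nearby. The third joined the promoters of Lacc1, a regulator of macrophage metabolism, and of Dnajc15, a mitochondrial cochaperone, over 840 kb on chromosome 14, with 21 contacts (12.999 to 32.101) and 12 in M0[CTR].

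Among IFNG-only loops the strongest was between adjacent bins at Ift22, which encodes a component of intraflagellar transport, on chromosome 5. It held 252 contacts (222 to 285), and both IL-4 lists without IFNG held 242 each. Neither the untreated nor the primed IFNG list contained it. The others were weak and long, with 23 contacts each (14.6 to 34.5). One joined Hmcn2 to Lamc3 on chromosome 2 over 580 kb and the other began in Tmem170b on chromosome 13 and spanned 600 kb. A bin pair missing from a list was not called there, and its contacts are not known to be 0.

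CTCF consensus matches were less common at anchors of unmatched than of matched loops in both lists. They were present in 32.7% (31.98 to 33.47) of anchor bins of primed-only loops and 31.4% (30.5 to 32.4) of those of IFNG-only loops. Anchor bins of matched loops had 36.9% (36.4 to 37.4) and 37.8% (37.3 to 38.3), and all 255959 sequenced bins of the genome 21.4%. Among loops with matches of a single orientation at each anchor, 45.4% (42.2 to 48.7) of 894 primed-only loops and 51.5% (46.8 to 56.2) of 435 IFNG-only loops were convergent, against 49.8% (48.7 to 50.9) and 50.1% (48.98 to 51.27) of matched loops. With no mismatch allowed, 62 and 34 unmatched loops were left, and 71.0% (58.7 to 80.8) and 52.9% (36.7 to 68.5) of them were convergent. TTCNNNGAA occurred on average 3.38 times per anchor bin of primed-only loops, 3.47 times in IFNG-only loops and 4.04 times over all bins. For the STAT6 palindrome the means were 2.86, 2.94 and 3.15. Anchor bins of matched loops had lower means in both lists, 3.18 for TTCNNNGAA and 2.71 for the STAT6 palindrome. Anchor bins of primed-only and IFNG-only loops had a GC content of 44.6% and 44.2%, above the 41.8% of all bins and below the 45.8% of matched loops in both lists.

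Loops near genes were then compared by the number of loop anchors within 100 kb of the transcription start site (TSS). The measure is the log2 ratio of pIL-4 + IFNG to IFNG after scaling by list length, with a pseudocount of 1. A loop with both ends in the window counts as 2 anchors, and neighbouring genes share anchors. Intervals of these ratios treat anchors as independent counts, so they are too narrow where loops have both ends in the window. Of 21728 protein-coding genes, 10699 had 20 or more anchors over both lists, and their median ratio was 0.00. Past 2-fold, 158 (1.48%) were higher after priming and 42 (0.393%) were lower, while 50.5% were above 0. This excess of higher genes was not stable, as 138 were higher and 196 lower at equal list length, and 308 and 300 with touching bin pairs merged. Nor were most single ratios near 0: of 147 genes of the lists (housekeeping and other cell types aside) and loci described below, 36 kept their direction in all 8 alternatives and 111 did not. For M2p[pIL-4] against M0[CTR], the shares were 1.55% and 0.419% of 10507 genes. Of the genes with a loop at the TSS bin, 28.1% had a primed-only loop there in the pIL-4 + IFNG list and 17.5% an IFNG-only loop in the IFNG list.

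The receptor chains and signal transducers of the IL-4 pathway had about the same density of anchors with and without priming. Of 12 genes, 9 were counted, 4 were above and 5 below 0, none passed 2-fold, and the median was -0.01. Il4ra, the IL-4 receptor alpha chain, had 60, 52, 83, 65 and 82 anchors (log2 0.05), in the order untreated, M2[IL-4], M2p[pIL-4], IFNG and pIL-4 + IFNG, which is kept below. Stat6, the transcription factor of the pathway, had 74, 87, 91, 78 and 85 (-0.16). Jak1, a kinase of both pathways, was lowest, with 15, 16, 34, 22 and 17 anchors (-0.62, interval -1.66 to 0.32 without the pseudocount). Its level after priming was thus high without IFNG and not with it, though the interval with IFNG included 0. Ptpn6, a phosphatase that restrains cytokine signalling, was highest, at 26 against 38 (0.25).

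Of the 29 IL-4-induced genes, 24 were counted, 15 were above 0 and 9 below, and the median was 0.06. Only F7 and F10, both coagulation factor genes, passed 2-fold, as 2 of 24 genes with a background of 1.48%, and they share one locus and most of its anchors. The enzymes had Arg1, which degrades arginine, with 11, 30, 16, 15 and 24 anchors (0.37), and Alox15, a lipoxygenase, with 72, 78, 107, 55 and 90 (0.42). Mrc1, the mannose receptor, had 37, 26, 39, 23 and 41 (0.53), a difference that turned to -0.34 at equal list length and -0.19 with touching bin pairs merged. Egr2, a transcription factor of late IL-4 responses, had a ratio of 0.35. Lowest were Il1rn, the interleukin 1 receptor antagonist (-0.27), Irf4, a transcription factor (-0.26), Itgax, an integrin chain (-0.19), and Cish, an inhibitor of cytokine signalling (-0.19). For Il1rn and Irf4 the counts were the same in both lists, 14 and 11, so that their ratios came from the scaling alone.

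IFNG pathway genes had a median of -0.09 over 16 counted, with 6 above 0, 10 below and none past 2-fold. Stat2, a transcription factor of interferon signalling (-0.26), and Irf8, a macrophage lineage factor (-0.22), were near the lower end. Stat2 had 71 anchors in IFNG and 72 in pIL-4 + IFNG, so its ratio came mostly from the scaling. Usp18, a protease that limits interferon signalling, was highest, with 17, 28, 33, 22 and 38 anchors (0.49), followed by Pias1, an inhibitor of cytokine signalling (0.37), and Ifngr2, a chain of the IFNG receptor (0.24).

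IFNG-induced genes had a median of 0.02, with 39 of 46 counted, 24 above 0, 15 below and none past 2-fold. GTPases of cell-autonomous defence were mostly above 0, at 8 of 9 counted and a median of 0.18. They are not separate observations, since they lie in clusters and share anchors. Gbp2, Gbp3, Gbp5 and Gbp7 are neighbours on chromosome 3, as are Irgm1, Tgtp1 and Ifi47 on chromosome 11. Igtp and Irgm2 had the same counts, 10 against 16. Gbp3 had 23, 17, 21, 73 and 101 anchors in the order above and Gbp2 had 12, 8, 11, 56 and 76, so the IFNG-treated lists stood far above the others with or without priming. The direction within the IFNG-treated pair was not stable, as Gbp3 moved from 0.18 to -1.12 at equal list length and to -0.35 when touching bin pairs were merged. Chemokines had a median of -0.46 over 5 counted, with 3 below 0 and 2, Ccl7 (0.08) and Ccl12 (0.10), above. Cxcl9 had 12, 23, 21, 37 and 30 anchors (-0.57, interval -1.33 to 0.15 without the pseudocount) and Cxcl10 had 13, 24, 21, 36 and 29 (-0.58, -1.35 to 0.15). Both attract T cells, lie next to each other and share anchors. Ccl5, which attracts T cells and monocytes, had 83, 71, 86, 75 and 66 (-0.46). The ratios of Cxcl9, Cxcl10 and Ccl5 were below 0 in each of 8 alternatives, and their intervals included 0.

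Antigen presentation genes spanned -0.27 to 0.38 with a median of 0.02. Ciita, the regulator of MHC class II genes, had 80, 107, 92, 110 and 111 anchors (-0.27, and 0.09 with touching bin pairs merged). With 110 and 111 anchors in the IFNG-treated lists, the ratio of Ciita came mostly from the scaling. H2-K1, an MHC class I chain, had 98, 110, 129, 92 and 146 (0.38, and -0.61 with touching bin pairs merged). B2m, the light chain of MHC class I, had 2, 11, 16, 12 and 19 (0.36). Cd86, a costimulatory ligand, was highest of the list on few anchors, 7 against 15 (0.74).

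Inflammatory genes leaned downwards, with 13 of 19 counted below 0, a median of -0.12 and 1 gene, Tlr2, past 2-fold, where the background was 0.393%. Cytokines had 5 of 6 below 0 and a median of -0.35. Il10, an anti-inflammatory cytokine, had 20, 16, 27, 24 and 17 anchors (-0.74, -1.77 to 0.17), Il18 had 7, 6, 12, 18 and 15 (-0.52), and Il12b 8, 9, 10, 15 and 14 (-0.36). Tnf had 94, 92, 116, 118 and 114 (-0.33). The raw numbers of the last 3 were within 4 anchors of each other in the IFNG-treated pair, so much of each ratio came from the scaling for list length. Ccl2, a monocyte chemokine, had 30, 32, 38, 47 and 60 (0.07), and Cd14, a coreceptor for endotoxin, 42, 48, 48, 35 and 51 (0.25). Edn1, which encodes the vasoconstrictor endothelin 1, had 18, 23, 17, 35 and 39 (-0.12). Il6 was not counted, with 1 loop in its window in each of the IFNG-treated lists.

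Complement and coagulation genes split by locus. All 6 complement genes lay between -0.16 and 0.03, with C3, the central component, at 66, 64, 95, 74 and 92 anchors (0.03). F7, F10 and Proz passed 2-fold upwards, as 3 of 13 counted where the background was 1.48%. They share a locus, and with touching bin pairs merged their ratios were -0.43, -0.97 and -0.66. F3, tissue factor, was lowest (-0.21). Macrophage identity genes had a median of -0.05 over 20 counted, from Cx3cr1, a chemokine receptor (-0.47), and Csf1r, the receptor of M-CSF (-0.44), up to 0.37, the ratio of Runx1, a transcription factor. Genes of other cell types had a median of 0.00 over 14 and housekeeping genes 0.08 over 26, with none of either past 2-fold. The remaining genes that the study names were Klf4, a transcription factor induced by IL-4 (66, 117, 106, 92 and 107 anchors, -0.07), Itgax (62, 93, 81, 59 and 63) and Slc7a2, a cationic amino acid transporter, which was not counted. Slc7a2 had 4 loops in IFNG and 5 in pIL-4 + IFNG.

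**Figure D2:**
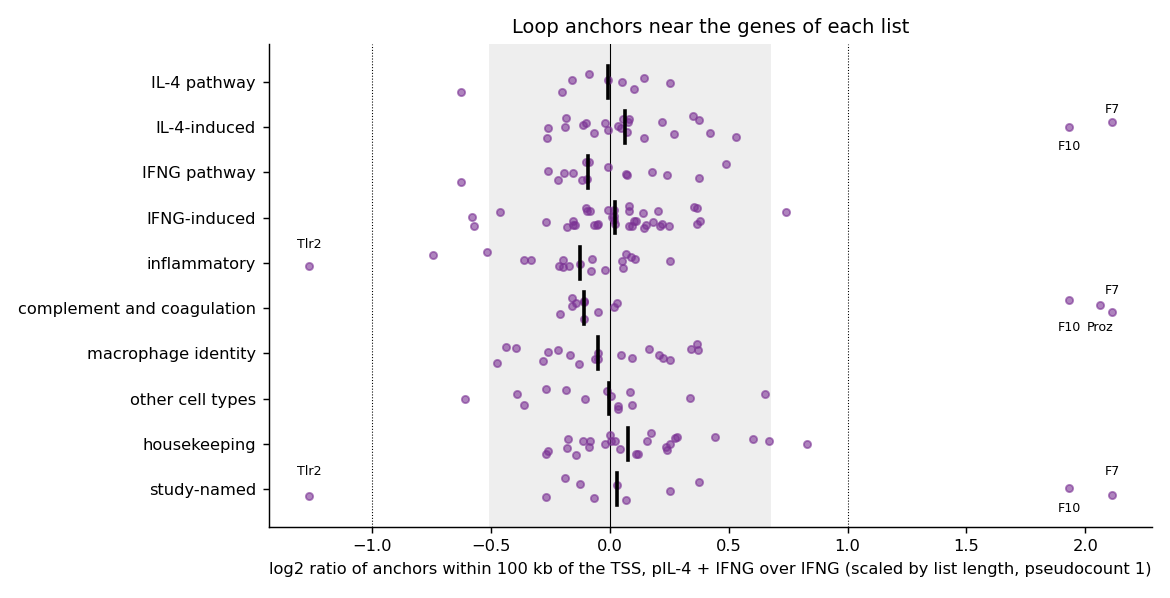
Each point is a counted gene, placed by its log2 ratio of anchors within 100 kb of the TSS, pIL-4 + IFNG over IFNG, in rows by gene list. Black bars are list medians, the grey band holds the central 90% of all counted genes and dotted lines mark 2-fold. List medians lie between -0.12 and 0.08, and F7, F10 and Proz stand above and Tlr2 below the dotted lines.

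Unmatched loops at promoters were then counted by gene list. In the pIL-4 + IFNG list, 5 of 19 IL-4-induced genes with a loop at the TSS bin had a primed-only loop there (Myc, Tgm2, Mgl2, Cdh1 and Flt1), 26.3% against 28.1% over all genes. Among IFNG-induced genes 6 of 36 did (Gbp4, Gbp8, Gbp9, Tgtp1, H2-DMa and Tap2), 16.7%. In the IFNG list, 3 of 15 IL-4-induced genes had an IFNG-only loop at the TSS bin (Myc, Ccl17 and Cish), 20.0% against 17.5% over all genes. Over all lists of genes the shares ran from 12.5% to 44.4% in pIL-4 + IFNG and from 6.67% (macrophage identity, with Cebpb alone) to 33.3% in IFNG, each on 6 to 36 genes with a loop at the TSS bin.

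Over all genes, the 8 loci with the highest ratio were taken, genes with a TSS within 200 kb of a better-ranked one counting as 1 locus. At all 8 the IFNG list held the lowest number of anchors of the 5 lists after scaling, and at 6 of them pIL-4 + IFNG held the highest. The choice of loci favours a low IFNG value, so this is a description of how the differences arose and not support for them. Intervals given for these loci, and for the lower ones below, do not allow for the choice of extremes. Fyn led (chromosome 10 from 39368855 to 39565381, plus strand). It encodes a tyrosine kinase of the Src family. It had 13, 21, 23, 3 and 25 anchors, a log2 ratio of 2.46 (interval without the pseudocount 1.06 to 5.15). The IFNG list was low and the other 4 lay between 13 and 25. In loops, the window held 3 with 74 contacts in IFNG and 21 with 613 contacts in pIL-4 + IFNG, of which 3 ended at the TSS bin and none did in IFNG. The strongest joined a bin upstream of the gene to one inside it (39260001 to 39270000 and 39410001 to 39420000) with 45 contacts (32.8 to 60.2), and the lists without IFNG had 40 (untreated), 52 (M2[IL-4]) and 65 (M2p[pIL-4]) there. IFNG had no call at those bins and at most 33 contacts within 25 kb. The ratio was past 2-fold in 7 of 8 alternatives and 0.57 with a 250 kb window.

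Next was a locus of chemokine receptors and transporters on chromosome 9, led by Ccr9, the receptor of CCL25, with Slc6a20a, Slc6a20b, Lztfl1 and Cxcr6, the receptor of CXCL16, also past 2-fold. Ccr9 had 17, 22, 25, 5 and 31 anchors (2.16, 0.97 to 4.07, and 0.53 with a 250 kb window). Its strongest loop after priming joined Slc6a20a to Fyco1 (123660001 to 123670000 and 123790001 to 123800000) and held 32, 32, 38, 30 and 54 contacts, so it was listed everywhere and was highest in pIL-4 + IFNG.

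Itch, an E3 ubiquitin ligase, had 10, 14, 18, 3 and 20 anchors (2.15, 0.70 to 4.85, and 0.65 with a 250 kb window). Its strongest loop, from 155080001 to 155090000 upstream of the gene to 155160001 to 155170000 inside it, held 77 contacts (60.8 to 96.2) after priming and IFNG, and 73 (untreated), 71 (M2[IL-4]) and 59 (M2p[pIL-4]) without IFNG. The IFNG list had no loop within 25 kb of it. The loop belonged to a cluster of 7 touching primed-only bin pairs with 377 contacts, the second largest such cluster, while the largest IFNG-only cluster had 5 pairs. This loop was therefore absent from the IFNG list alone.

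The coagulation factor locus on chromosome 8 ranked by Cul4a, a scaffold of cullin ubiquitin ligases, and held Pcid2, F7, Proz, F10, Grtp1 and Lamp1 past 2-fold. F10 (chromosome 8 from 13037308 to 13056676, plus strand) had 13, 87, 60, 6 and 31 anchors (1.93), F7 had 13, 82, 54, 5 and 30 (2.11), and Proz, which encodes protein Z, a cofactor of factor X inhibition, 14, 88, 61, 6 and 34 (2.06). All 3 IL-4-exposed lists were above both lists without IL-4, and the pIL-4 + IFNG list was the lowest of the 3. The 18 loops of pIL-4 + IFNG near F10 had 633 contacts and the 4 of IFNG 149, with median counts of 36.5 and 35, so loops were more numerous and of like strength. Most of these were touching bin pairs. Merged, they left 3 loops in pIL-4 + IFNG and 4 in IFNG, and the ratio of F10 turned to -0.97. The strongest loop after priming ran from Mcf2l (12980001 to 12990000) to the shared promoter bin of Cul4a and Pcid2 (13100001 to 13110000), past the F7, F10 and Proz genes. It held 47 contacts (34.5 to 62.5) after priming and IFNG, against 43 (untreated), 47 (M2[IL-4]) and 45 (M2p[pIL-4]). The IFNG list lacked it and had at most 37 contacts within 25 kb. That loop thus had 43 to 47 contacts in every list that held it, M0[CTR] included.

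Prokr1, a prokineticin receptor, had 11, 21, 13, 5 and 29 anchors (2.07), with Arhgap25, a regulator of Rac signalling in phagocytes, in the same locus. Its ratio was -0.14 with a 25 kb window. St8sia1, a sialyltransferase that makes the ganglioside GD3, had 6, 17, 13, 4 and 23 (2.01, 0.69 to 4.23) and was past 2-fold in all 8 alternatives. Its strongest loop had 49 contacts (36.3 to 64.8) and was called in only 1 other list at those bins, M2p[pIL-4], with 37, while the other 3 lists had up to 30 or 31 within 25 kb. Chrnd, a subunit of the muscle acetylcholine receptor, had 15, 11, 20, 5 and 27 (1.97, and 0.15 with a 250 kb window). The strongest loop there joined Alpi to Prss56 (87090001 to 87100000 and 87180001 to 87190000), with the convergent CTCF matches and the TTCNNNGAA match shown above. It held 67 contacts (51.9 to 85.1) in pIL-4 + IFNG, with 70 in the M2p[pIL-4] list and no call elsewhere, though M0[CTR] had 52 within 25 kb. Gm11634, with Tmem106a, Rdm1, Brca1, Nbr1 and Arl4d, had 14, 33, 23, 5 and 23 (1.75). Its strongest loop joined the promoters of Arl4d, a small GTPase, and Dhx8, a splicing helicase, with 94 contacts (76.0 to 115) in pIL-4 + IFNG, 105 in M2[IL-4] and 92 in M2p[pIL-4]. It was called in the 3 IL-4-exposed lists and in neither list without IL-4, where the highest counts within 25 kb were 62 in M0[CTR] and 59 in IFNG.

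**Figure D3:**
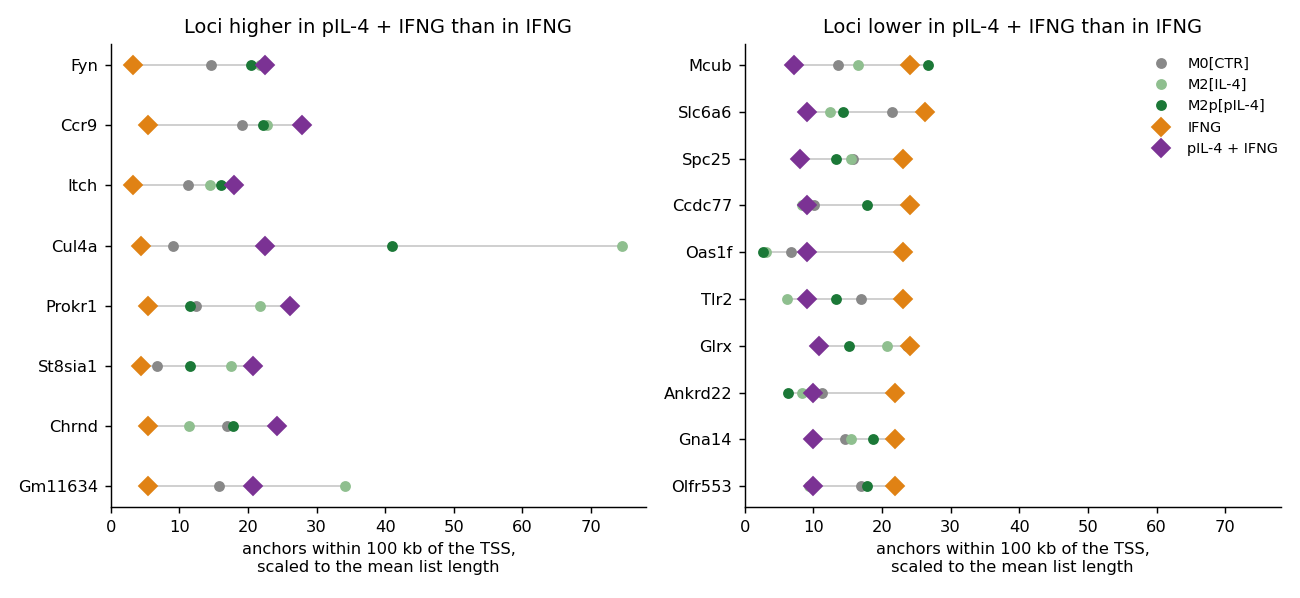
Anchors within 100 kb of the TSS at the loci of highest (left) and lowest (right) ratio, scaled to the mean list length, with 1 point per list and no replicates. IFNG (orange diamonds) is lowest of the 5 lists at all 8 loci on the left and highest at 9 of 10 on the right, where M2p[pIL-4] is above it at Mcub. The loci were chosen by this ratio, which favours these places of the IFNG list.

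The loci lower after priming had the IFNG list as the highest of the 5 at 9 of 10, and pIL-4 + IFNG as the lowest at 5 of 10. The choice of these loci favours a high IFNG and a low primed value, so these places are a description and not support. The 10 comprise 8 ranks, since 3 genes tied for the last. Mcub led, which encodes an inhibitory subunit of the mitochondrial calcium uniporter (chromosome 3 from 129914960 to 129970206, minus strand), with Sec24b of the secretory pathway. It had 12, 16, 30, 22 and 8 anchors (-1.62, -3.12 to -0.52). M2p[pIL-4] was highest, so priming went with more anchors without IFNG and fewer with it. Slc6a6, the taurine transporter, had 19, 12, 16, 24 and 10 (-1.45), a ratio of 0.31 with touching bin pairs merged. Its strongest loop, 60 contacts (45.8 to 77.2) in IFNG, was also listed in pIL-4 + IFNG, at 50 (37.1 to 65.9). Spc25, a kinetochore protein, had 14, 15, 15, 21 and 9 (-1.40), and Ccdc77 with Kdm5a, a histone demethylase, 9, 8, 20, 22 and 10 (-1.33).

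Oas1f belongs to the 2'-5'-oligoadenylate synthetases, interferon-induced antiviral enzymes that lie side by side on chromosome 5. It had 6, 3, 3, 21 and 10 anchors (-1.27, -2.60 to -0.21). Both IFNG-treated lists were above the other 3, and the primed one lay between them. Neighbouring genes, named after their values were seen and sharing most of these anchors, had the same order. Oas3 had 11, 7, 5, 24 and 17 (-0.74), Oas1c had 8, 5, 3, 22 and 13 (-0.98) and Oas1h 5, 2, 3, 18 and 8 (-1.34). At Oas2, at the edge of the cluster, the IFNG-treated lists had 23 and 22 (-0.33). The window of Oas1f held 11 loops with 1163 contacts in IFNG and 5 with 721 in pIL-4 + IFNG. The strongest loop of the IFNG list, from Oas1f to the promoter bin of Oas1d (120850001 to 120860000 and 120910001 to 120920000), had 71 contacts (55.5 to 89.6) and was called in no other list. pIL-4 + IFNG had 67 contacts at a bin pair within 25 kb, so a loop of like count was present there, shifted by up to 2 bins. The ratio of Oas1f was -0.33 with a 250 kb window and -2.52 with 50 kb. These genes are near-identical copies in part, and reads that map to several of them can be lost or misplaced in mapping.

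Tlr2, the receptor of bacterial lipoproteins, had 15, 6, 15, 21 and 10 anchors (-1.27, -2.60 to -0.21), with 15 loops in IFNG and 7 in pIL-4 + IFNG, of 459 and 189 contacts. It had no loop at the TSS bin in either list, and with a 25 kb window its ratio was 0.00. Its strongest loop in IFNG held 52 contacts (38.8 to 68.2) and was not called at those bins elsewhere, where M0[CTR] also had 52 and pIL-4 + IFNG 37 within 25 kb. Glrx, a glutaredoxin of the redox defence, had 21, 20, 17, 22 and 12 (-1.09). Ankrd22 (10, 8, 7, 20 and 11), Gna14, a G protein subunit (13, 15, 21, 20 and 11), and Olfr553, an olfactory receptor (15, 9, 20, 20 and 11), tied at -1.07. The ratio of Ankrd22 turned to 0.93 with a 25 kb window. Of the 8 alternatives, Ankrd22 and Olfr553 were past 2-fold in 0 and Gna14 in 2.

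**Figure D4:**
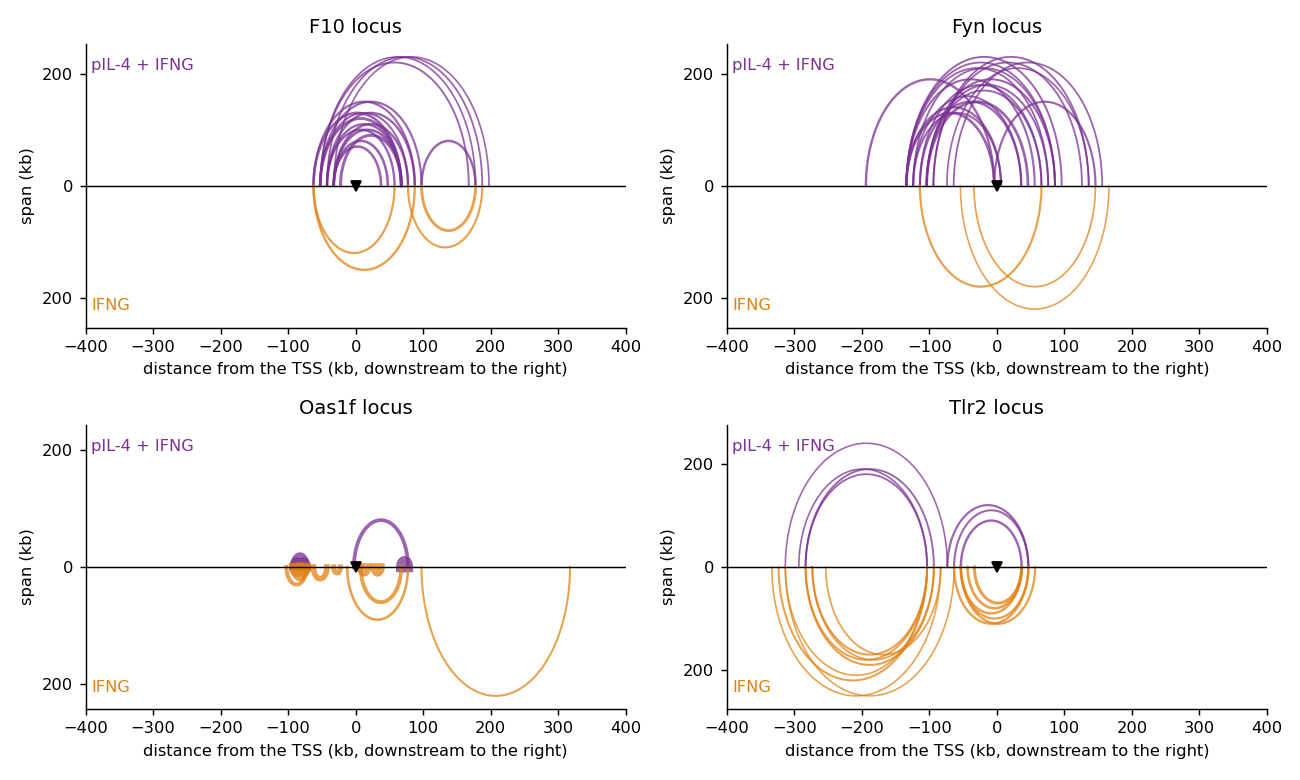
Loops with an anchor within 100 kb of the TSS (black triangle) of F10, Fyn, Oas1f and Tlr2, drawn as arcs whose height is the span, upwards for pIL-4 + IFNG (purple) and downwards for IFNG (orange), with width growing with contacts. F10 has 18 arcs above and 4 below the line and Fyn 21 and 3, while Oas1f has 5 and 11 and Tlr2 7 and 15.

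The effect of priming with IFNG was then set beside that without IFNG, M2p[pIL-4] over M0[CTR], which uses 2 other lists. Across the 10057 genes with 20 or more anchors in both pairs, the ratios had a Pearson r of 0.16 and a Spearman rho of 0.17, as a description, since neighbouring genes share anchors. The relation was lost, with an r of -0.00, when touching bin pairs were merged. Of the 138 genes higher past 2-fold with IFNG and the 129 higher without it, 16 were the same, or 11.6% and 12.4%. Over all counted genes, 1.55% were higher past 2-fold without IFNG and 1.48% with it. Of the 16, 7 belong to the F10 locus. The others were Dnmt3a, a DNA methyltransferase (11, 22, 31, 11 and 41 anchors, 1.54 with and 1.09 without IFNG), Nsmf (1.33 and 1.09), Klhl22 and Med15, which share a locus (1.18 and 1.28), Snx1 and Ciao2a, likewise (1.16 and 1.20), Sult6b2 (1.11 and 1.05), Dennd4c (1.06 and 1.39) and Nop53 (1.01 and 1.26). Of the 28 genes lower past 2-fold with IFNG and the 35 lower without it, none was the same. Over all counted genes only 0.393% were lower with IFNG and 0.419% without it, so the lack of a shared gene says little. In all, 7 genes were higher in one pair and lower in the other.

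**Figure D5:**
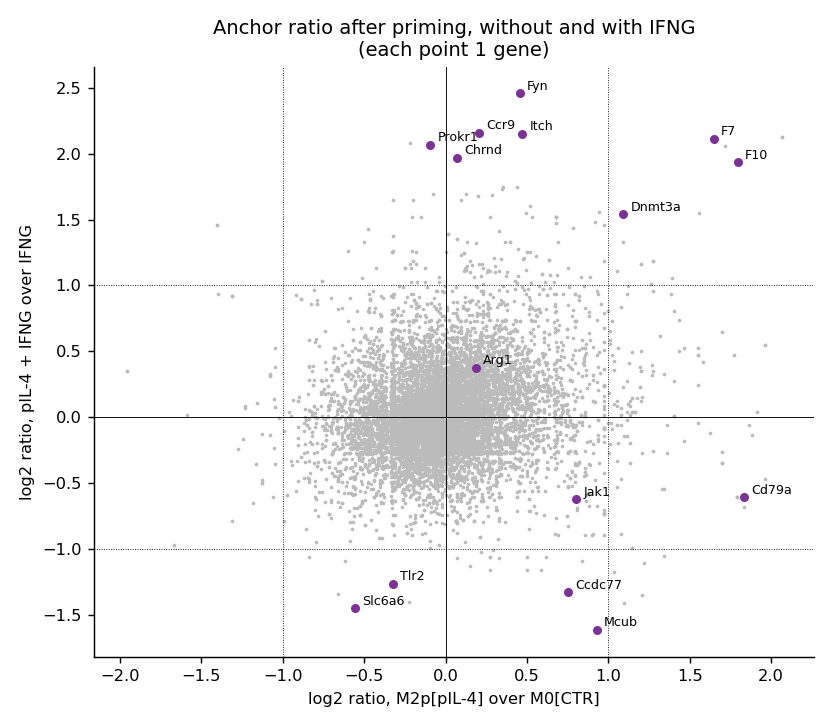
Each grey point is a gene with 20 or more anchors in both pairs of lists, placed by its log2 anchor ratio after priming without IFNG (horizontal) and with IFNG (vertical), with genes named in the text in purple and dotted lines at 2-fold. F7, F10 and Dnmt3a lie past 2-fold on both axes, Fyn, Ccr9, Itch, Prokr1 and Chrnd on the vertical axis alone, and Mcub and Ccdc77 at the lower right.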

How the data were processed

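Hi-C of 10 BMDM samples in 5 groups of 2 was analysed from 5 deposited loop lists, 1 per group. The authors' methods name nf-core/hic, which ran HiC-Pro (mapping by bowtie2), and loop calls at 25 kb, and the submitters' processing notes mm10, HOMER and Juicer. The caller and threshold of these 10 kb lists are not given in the sources used here. The deposited values are raw counts of contacts per bin pair, with both replicates merged and no normalization. Sums of 2245331 (IFNG) and 2757773 (pIL-4 + IFNG) contacts are the called part of each library, not its depth. Matches needed both anchors within 25 kb. Genes were protein-coding genes of GENCODE M21 (GRCm38), with a 100 kb window, 20 anchors over both lists as the minimum, scaling by list length and a pseudocount of 1. Shares have Wilson, counts exact Poisson and ratios exact binomial intervals at 95%. Named genes were up to 4 counted members at each end of each list, the genes the study names and the first 8 loci each way with 20 anchors in the higher list. Named loops were the 3 strongest unmatched per list and the 3 largest ratios each way. Members and gene lists were chosen with earlier results of these data known. Alternatives changed match distance, list length, merging, adjacent bins, minima, windows, scaling, pseudocount and measure. Functions were tested on simulated data. Loops on chromosome M (1 per list) were left out of motif counts, and Cxcl11 was not matched in the annotation. Tools were pandas 2.3.3 and numpy 2.4.6 for the tables, scipy 1.17.1 for intervals and matplotlib 3.10.9 for plots, run under Python 3.11.15.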

Additional observations from a re-analysis of the deposited data

Results flagged for a closer look

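At 4 genes with 20 or more anchors in each pair of lists, among the gene lists and loci, the ratio after priming went one way with IFNG and the other way without it, past 1.5-fold both times, and the difference was not tested. Mcub had a log2 ratio of -1.62 with IFNG and 0.93 without. Ccdc77 had -1.33 with IFNG and 0.75 without. Jak1 had -0.62 with IFNG (interval -1.66 to 0.32 without the pseudocount) and 0.80 without. Cd79a, a B cell receptor component counted among the genes of other cell types, had -0.61 with IFNG and 1.83 without, on 18 and 14 anchors with IFNG and 6 and 30 without. Chmp2a, a housekeeping gene, had 0.83 with IFNG and -1.08 without, on 11 and 6 anchors without IFNG, below that minimum.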

How the results depend on the processing

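No paired analysis was possible because the replicates of a group were merged into a single list, and for the same reason no replicate could be left out. The ratio of loop numbers was 1.15 with touching bin pairs merged. The shares of pIL-4 + IFNG and IFNG loops matched were 43.2% and 52.7% in the same bins, 94.0% and 96.0% within 50 kb, 88.6% and 88.3% at equal list length and 58.9% and 66.8% with touching bin pairs merged. The shares of shared bin pairs higher and lower past 1.5-fold were 1.37% and 1.54% when scaled to bin pairs in all 5 lists and 0.616% and 0.713% at 100 contacts or more. Genes higher and lower past 2-fold numbered 770 and 419 with a 25 kb window, 504 and 234 with 50 kb, 61 and 16 with 250 kb, and 63 and 9 with a pseudocount of 5. They were 417 and 12 without scaling (where the median of all genes was 0.28), 350 and 112 by summed contacts, 308 and 300 with merging, and 1071 and 934 with no minimum. At equal list length 138 were higher and 196 lower. Genes past 2-fold both with and without IFNG were 66 higher and 21 lower with a 50 kb window, and 4 were lower with merging. Pearson r was 0.13 with 50 kb and -0.00296 with merging.

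Convergent shares of matched loops were 61.7% (pIL-4 + IFNG) and 61.4% (IFNG) with no mismatch and 54.5% in the same bins. For unmatched loops they were 71.0% (pIL-4 + IFNG) and 52.9% (IFNG) with no mismatch, on 62 and 34 loops, and 43.3% and 42.7% in the same bins. With merging, ratios turned to -0.17 at Cul4a, -0.43 at F7, -0.97 at F10, -0.66 at Proz and 0.31 at Slc6a6. A 25 kb window gave -0.14 at Prokr1 and 0.93 at Ankrd22. Apart from merging, which joins neighbouring bin pairs by construction, the causes were not tested. Over the 8 alternatives for single genes, 138 to 158 of the 158 higher genes kept their direction and 47 to 158 stayed past 2-fold. Of the 42 lower genes, 38 to 42 kept their direction and 9 to 32 stayed past 2-fold.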
